A study of Mus musculus with 16 samples.

Results

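The CCAAT/enhancer binding proteins (C/EBPs) are transcription factors, and 4 of the 16707 genes in the deposited expression table encode members of the family that were followed here: *Cebpa*, *Cebpb*, *Cebpd* and *Cebpg*. Their rows were found by symbol, but the family was chosen with earlier results of these data known. All 4 passed the authors' filter on low counts. The libraries come from primary astrocytes of C57BL6J wild type (WT) pups and of *Nlrx1*-/- (KO) pups, taken at postnatal day 6 per the labels (the study's results text gives a younger age) and selected with beads against the astrocyte surface antigen ACSA2. Cultures were grown in serum-free medium with heparin-binding EGF in both genotypes. Each of 4 WT and 4 KO litters gave a vehicle well (H2O) and a well stimulated with lipopolysaccharide (LPS, 500 ng/mL) and interferon γ (IFNγ, 10 ng/mL) for 24 h, so that there were 16 libraries in 4 groups of 4. The knockout is carried by every cell of the animal, and both wells of a litter came from the same mice, so the litter is the replicate.

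C/EBP proteins bind DNA as dimers through a basic region followed by a leucine zipper (bZIP), and they pair with one another and with other bZIP factors such as ATF4 and the Jun and Fos proteins. C/EBPβ and C/EBPδ are classic acute phase factors that are switched on downstream of Toll-like receptors and IL-6 family cytokines, and in glia they are known as activators of inflammatory genes. C/EBPα is best known for differentiation of myeloid cells, liver and fat, whereas C/EBPγ has no strong activation domain of its own and acts mostly as a partner, including with ATF4 on amino acid stress genes.

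*Cebpa* and *Cebpg* lie near each other on mouse chromosome 7, at chr7:34818718-34821353 on the plus strand and chr7:34745847-34756011 on the minus strand (GRCm39, GENCODE M39). Between them are 62706 bases and 6 annotated genes, all with Gm names. *Cebpb* lies at chr2:167530835-167532338 and *Cebpd* at chr16:15705150-15708895, both on the plus strand. The 250 bases upstream of the transcription start are shown for the members that the RefSeq promoter table (GRCm38.p6) holds, because these genes moved together after stimulation and their upstream regions can be compared; *Cebpd* has no entry there. Capitals mark a TATA box (TATAAA) in *Cebpa*, cyclic AMP response element core sites (TGACG, or CGTCA on the other strand) in *Cebpb*, and CCAAT boxes (ATTGG on this strand) in *Cebpg*. The windows lie at chr7:35119043-35119292 (plus strand), chr2:167688665-167688914 (plus strand) and chr7:35056567-35056816 (minus strand).
Cebpa: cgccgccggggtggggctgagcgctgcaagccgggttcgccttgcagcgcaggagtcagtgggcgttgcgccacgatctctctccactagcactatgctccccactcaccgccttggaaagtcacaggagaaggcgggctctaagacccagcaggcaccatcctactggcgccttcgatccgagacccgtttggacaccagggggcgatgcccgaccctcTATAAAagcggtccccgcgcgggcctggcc
Cebpb: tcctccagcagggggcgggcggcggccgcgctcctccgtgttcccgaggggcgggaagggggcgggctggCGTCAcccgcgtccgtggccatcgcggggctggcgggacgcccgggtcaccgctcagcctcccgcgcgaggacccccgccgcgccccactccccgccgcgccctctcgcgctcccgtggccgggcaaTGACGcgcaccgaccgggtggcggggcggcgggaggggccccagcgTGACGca
Cebpg: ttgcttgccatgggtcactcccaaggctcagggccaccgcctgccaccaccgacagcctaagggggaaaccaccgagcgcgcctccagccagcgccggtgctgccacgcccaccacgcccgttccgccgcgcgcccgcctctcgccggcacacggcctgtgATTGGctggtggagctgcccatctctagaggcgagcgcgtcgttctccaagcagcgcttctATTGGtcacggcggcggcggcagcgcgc

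The upstream windows differed in their letters. The *Cebpa* window held 1 TATA box, 30 to 25 bases upstream of the start, a motif found in 12.4% of 32851 RefSeq windows of this length. The *Cebpb* window held 3 cyclic AMP response element core sites (17.8% of windows hold at least 1) and 5 GC boxes (GGGCGG, 32.7%; left in lower case, and not in the other windows), and the *Cebpg* window held 2 CCAAT boxes (33.8%). The letters searched for a C/EBP site (TTGCNNAA, 9.56% of windows), an amino acid response element (TGATGNAA, 3.45%) and an interferon γ activated site (TTCNNNGAA, 7.02%) were not in the 3 windows on either strand. A site for the transcription factor NF-κB (4.11% of windows) was also searched for, with 0 matches in each of these 3 windows. All 3 windows were rich in G and C, with 66.4% in *Cebpa*, 81.6% in *Cebpb* and 70.8% in *Cebpg* against a median of 52.4% over all windows. These matches describe the letters of the windows and nothing about the factors.

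Salmon assigned between 27259420 and 43752903 reads to transcripts per library, and the members had between 190 reads (*Cebpa*) and 3944 reads (*Cebpd*) in a library. *Nlrx1* itself, the check of the labels, was at 16.8 to 21.7 CPM (counts scaled to library size) in the WT libraries and at 2.07 to 7.75 CPM in the KO libraries, so the genotypes did not overlap, although KO cells kept some *Nlrx1* reads. All 10 astrocyte markers were present in the expression table, with *Gfap* between 124 and 2062 TPM (transcript abundance scaled by length and library size). Microglial markers, which matter here because *Cebpa* and *Cebpb* are also myeloid genes, were at or near 0: 11 of 12 were below the authors' filter (*P2ry12* was not), *Aif1* had at most 5 reads in a library, and the 12 summed to at most 3.39 TPM. The 4 neutrophil markers were all below the filter, *Cebpe* among them. KO litter 3 stood apart in fibroblast markers, which summed to 33.0 TPM in its vehicle library and 22.5 TPM in its stimulated library, against 5.27 to 12.05 TPM in the other KO libraries. The libraries were prepared without strand information, and in GENCODE M39 the opposite-strand genes *Peds1* and *Spidr* overlap 20.7% of the exonic bases of *Cebpb* and 15.0% of those of *Cebpd*, so reads in those stretches cannot be told apart. These shares are of all annotated exons (3746 bases for *Cebpd*), while the *Cebpd* transcript that was counted has 2260 bases. *Spidr* was at 15.3 to 27.0 TPM over the libraries, and *Peds1* had no row in the expression table under that symbol.

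All 4 C/EBP genes rose with LPS + IFNγ in WT astrocytes and in KO astrocytes. In WT cells the rise was 2.51-fold for *Cebpa*, 2.36-fold for *Cebpd*, 1.95-fold for *Cebpb* and 1.43-fold for *Cebpg*. In KO cells it was 4.88-fold for *Cebpd*, 3.28-fold for *Cebpb*, 3.08-fold for *Cebpa* and 2.35-fold for *Cebpg*. Among all 16066 genes tested with edgeR, 23.7% rose in WT and 25.3% rose in KO at the same adjusted p threshold of 0.05, while 20.2% and 24.2% fell, and the median response of all genes was -0.020 and -0.030 on the log2 scale, against medians of 1.10 and 1.67 for the 4 members. Stimulated libraries did not overlap with vehicle libraries of the same genotype for any member, a pattern that 20.2% of the 16707 genes showed upwards in WT and 17.6% in KO.

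**Figure D1:**
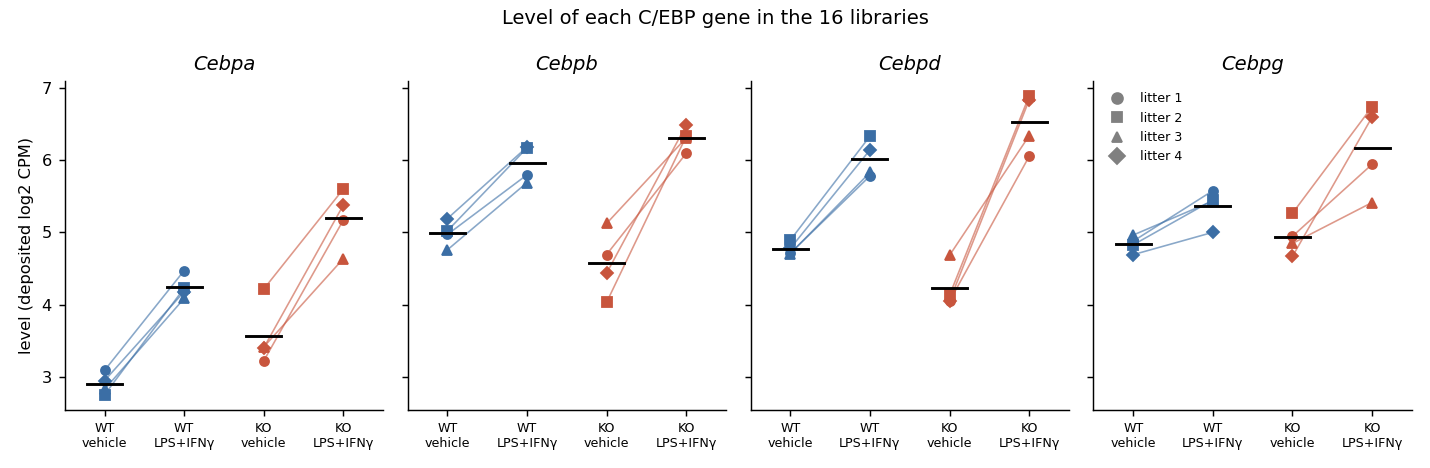
Deposited log2 CPM of *Cebpa*, *Cebpb*, *Cebpd* and *Cebpg* in each of the 16 libraries (y axis) by genotype and treatment (x axis; WT blue, KO red). Symbols mark the litter, lines join the 2 libraries of a litter, and black bars are means of 4; each line rises, and *Cebpa* in stimulated KO cells (4.64 to 5.60) lies above stimulated WT cells (4.09 to 4.47).

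*Cebpd*, which encodes an early responding C/EBP with low resting expression in most tissues, had the largest response of the 4 in KO cells. In WT vehicle cultures its deposited log2 CPM was 4.71, 4.89, 4.71 and 4.78 in litters 1 to 4, and after LPS + IFNγ it was 5.78, 6.33, 5.83 and 6.14. In KO vehicle cultures it was 4.05, 4.13, 4.68 and 4.05, and after stimulation 6.05, 6.89, 6.34 and 6.83. The KO vehicle libraries were thus the lowest of the 16, below every WT vehicle library, and KO litter 3 was closest to the WT range. The response was 1.24 on the log2 scale (SE 0.164) in WT and 2.29 (SE 0.170) in KO, both past the threshold (edgeR, adjusted p = 1.49e-04 and 2.07e-06).

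*Cebpb* encodes the C/EBP most often tied to inflammatory gene induction in macrophages and glia. Its log2 CPM was 4.97, 5.02, 4.76 and 5.19 in WT vehicle cultures and 5.80, 6.17, 5.69 and 6.18 in the matched stimulated cultures. In KO litters 1 to 4 it was 4.69, 4.03, 5.12 and 4.44 in vehicle and 6.09, 6.33, 6.31 and 6.49 after stimulation. The stimulated KO libraries lay close together (SD 0.161, n = 4), while the KO vehicle libraries were spread over more than a log2 unit (SD 0.458, n = 4), with litter 2 lowest and litter 3 highest. The edgeR response was 0.96 (SE 0.152, adjusted p = 4.88e-04) in WT and 1.71 (SE 0.155, adjusted p = 8.78e-06) in KO.

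*Cebpa* encodes the founding member of the family, which in many cell types goes with differentiation and exit from the cell cycle. Its log2 CPM was 3.09, 2.75, 2.83 and 2.95 in WT vehicle cultures and 4.47, 4.23, 4.09 and 4.18 in stimulated WT cultures. In KO cultures it was 3.22, 4.22, 3.42 and 3.40 in vehicle and 5.17, 5.60, 4.64 and 5.38 after stimulation. KO libraries were higher than WT libraries under both treatments without overlap, and litter 2 was the highest KO litter under both. The response was 1.33 (SE 0.127) in WT and 1.62 (SE 0.124) in KO (edgeR, adjusted p = 1.50e-05 and 2.59e-06). Salmon assigned the *Cebpa* reads to 1 or the other of 2 nearly identical transcripts (2636 and 2651 bases), with 0 reads on one of them in some libraries, so the sum over both was used.

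*Cebpg*, the partner without a strong activation domain, had the smallest response in both genotypes. Its log2 CPM was 4.88, 4.83, 4.96 and 4.69 in WT vehicle cultures and 5.58, 5.45, 5.43 and 5.00 after stimulation, so that the lowest stimulated library (litter 4) was just above the highest vehicle library. In KO cultures it was 4.95, 5.27, 4.85 and 4.67 in vehicle and 5.94, 6.74, 5.41 and 6.59 after stimulation, where litter 3 remained within the range of stimulated WT cultures. The WT response of 0.51 (SE 0.169, edgeR, adjusted p = 0.0302) passed the threshold with the litter block, and it did not pass without WT litter 1, 2 or 3 (adjusted p = 0.106, 0.0986 and 0.0776) or without the block (adjusted p = 0.0811). The KO response was 1.23 (SE 0.171, edgeR, adjusted p = 1.72e-04).

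**Figure D2:**
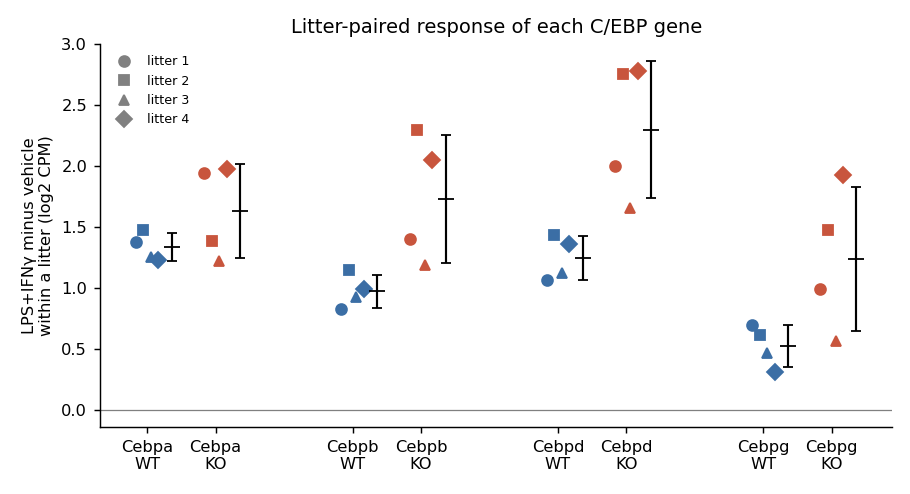
Litter-paired responses, the log2 CPM of the LPS + IFNγ library minus that of the vehicle library of the same litter (y axis), for each gene and genotype (x axis; WT blue, KO red). Symbols mark litters and error bars are the mean ± SD of 4; for *Cebpb* and *Cebpd* all 4 KO litters lie above all 4 WT litters, and KO litter 3 is the lowest KO litter for each gene.

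The study asked whether cells without *Nlrx1* respond differently to LPS + IFNγ, and the litter responses address this for each member. For *Cebpd* the responses were 1.07, 1.44, 1.12 and 1.36 in WT litters and 2.00, 2.76, 1.65 and 2.78 in KO litters. For *Cebpb* they were 0.83, 1.15, 0.93 and 0.99 in WT litters and 1.40, 2.30, 1.19 and 2.05 in KO litters. In both genes each KO litter responded more than each WT litter, a pattern seen upwards in 3.06% of the 16707 genes. For *Cebpg* the WT responses were 0.70, 0.62, 0.47 and 0.31 and the KO responses 1.00, 1.47, 0.57 and 1.93, and for *Cebpa* they were 1.38, 1.47, 1.26 and 1.23 against 1.95, 1.38, 1.22 and 1.98. Here the genotypes overlapped, by KO litter 3 for *Cebpg* and by KO litters 2 and 3 for *Cebpa*. The KO responses were also more spread than the WT responses, with SDs of 0.386 to 0.589 against 0.113 to 0.180 (n = 4 each).

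No member passed the test of the interaction across all genes. The KO response minus the WT response was 1.05 for *Cebpd* (SE 0.231, 95% interval 0.54 to 1.56, edgeR adjusted p = 0.217), 0.75 for *Cebpb* (SE 0.214, interval 0.27 to 1.22, adjusted p = 0.223), 0.72 for *Cebpg* (SE 0.239, interval 0.19 to 1.25, adjusted p = 0.231) and 0.29 for *Cebpa* (SE 0.175, interval -0.097 to 0.68, adjusted p = 0.455). With edgeR 0% of all 16066 genes were called for this contrast. The study, which used DESeq2 at an adjusted p below 0.05, did report genes that responded differently in KO cells. It also reported stronger activation of the gene set for TNFα signalling via NF-κB in KO cells, and named *Cebpd* in that set. At an unadjusted p below 0.05, 3 of the 4 members (*Cebpd*, *Cebpb* and *Cebpg*) and 5.89% of all genes were higher; DESeq2 called 2 members among 296 genes, limma-voom 0 and limma on the deposited log2 CPM 0. Without KO litter 3, edgeR called *Cebpd*, *Cebpb* and *Cebpg* (adjusted p = 0.0324, 0.0461 and 0.0463), among 317 of 16298 genes. The exact two-sided permutation test of the 4 KO against the 4 WT responses gave p = 0.0286 for *Cebpb* and *Cebpd*, the smallest that 4 against 4 litters allow, 0.0857 for *Cebpg* and 0.314 for *Cebpa*. Adjusted over the 12 exact tests made on the members, the smallest value was 0.0686.

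In vehicle cultures *Cebpd* was at 27.3 ± 1.67 CPM in WT vehicle (SD, n = 4) and 19.03 ± 4.43 CPM in KO vehicle, *Cebpb* at 31.8 ± 3.89 and 24.6 ± 7.82 CPM, *Cebpg* at 28.7 ± 2.23 and 30.8 ± 5.52 CPM, and *Cebpa* at 7.46 ± 0.779 and 12.2 ± 4.24 CPM. All 4 *Cebpd* values were lower and all 4 *Cebpa* values higher in KO, which held for 3.43% and 6.02% of all genes, while *Cebpb* and *Cebpg* overlapped. On the log2 scale KO minus WT was -0.53 for *Cebpd* (edgeR adjusted p = 0.155), -0.38 for *Cebpb* (0.264), 0.093 for *Cebpg* (0.855) and 0.70 for *Cebpa* (0.130), so 0 members were called. EdgeR called 0% of all genes here, 2 members (*Cebpa* and *Cebpd*) had an unadjusted p below 0.05 against 19.6% of all genes, and DESeq2 called 1 member (*Cebpa*) among 735 genes, limma-voom 0 and limma on log2 CPM 0. The targeted gene *Nlrx1*, at -1.70 on the log2 scale, was not called by edgeR either (adjusted p = 0.0538). A missing call in this contrast therefore does not show equal levels. Exact two-sided permutation tests of the vehicle levels gave p = 0.0286 for *Cebpa* and *Cebpd*, 0.171 for *Cebpb* and 0.629 for *Cebpg*. Without KO litter 3, edgeR called *Cebpa*, *Cebpb* and *Cebpd* in vehicle (adjusted p = 0.0363, 0.0479 and 0.0314), among 1310 of 16298 genes.

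Under LPS + IFNγ the members were at 94.8 ± 25.3 CPM (*Cebpd*), 79.4 ± 8.72 CPM (*Cebpb*), 76.8 ± 30.0 CPM (*Cebpg*) and 37.7 ± 9.98 CPM (*Cebpa*) in KO, and at 65.7 ± 12.1, 62.9 ± 10.9, 41.6 ± 6.74 and 18.9 ± 2.24 CPM in WT. *Cebpa* and *Cebpg* were higher in KO by 0.98 (SE 0.211, edgeR, adjusted p = 0.0396) and 0.87 (SE 0.222, adjusted p = 0.0447) on the log2 scale, among 2.65% of all genes called higher. *Cebpd* (0.51, edgeR adjusted p = 0.0852) and *Cebpb* (0.32, 95% interval -0.063 to 0.70, adjusted p = 0.256) were not called. Only *Cebpa* had no overlap between the genotypes (exact two-sided permutation test, p = 0.0286), a pattern that 7.09% of all genes showed upwards; *Cebpg* overlapped by KO litter 3. Both calls ended when WT litter 2, 3 or 4 or KO litter 2 or 4 was left out (adjusted p up to 0.150 for *Cebpa* and 0.151 for *Cebpg*), and in a fit of the 8 stimulated libraries alone (0.0746 and 0.0887); the *Cebpg* call also ended without KO litter 1 (0.0526), with limma-voom (0.0582) and with limma-voom and a litter correlation (0.0513), which unlike the edgeR fit does not treat the wells of a litter as independent. Without KO litter 3, and with DESeq2, *Cebpd* was called as well (adjusted p = 0.0284 and 0.0408), among 3333 of 16298 and 2438 of 16066 genes.

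**Figure D3:**
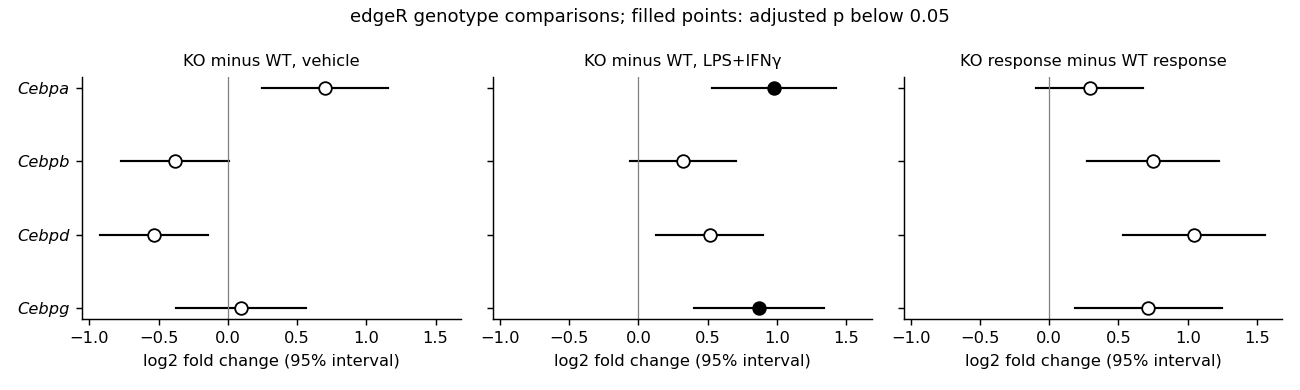
Differences between genotypes from edgeR for the 4 genes, in vehicle, under LPS + IFNγ and between the responses (interaction). Points are log2 fold changes, bars their 95% intervals, and filled points have an adjusted p below 0.05; the filled points are *Cebpa* (0.98) and *Cebpg* (0.87) under LPS + IFNγ.

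Cell type markers also differed along these comparisons. The summed level of the 10 astrocyte markers ranged from 4227 to 6867 TPM in WT vehicle and from 2980 to 4999 TPM in KO vehicle. Under LPS + IFNγ it ranged from 3428 to 5044 TPM in WT and from 2692 to 3873 TPM in KO. Of the 10, 3 were lower in stimulated KO than in stimulated WT cultures and 0 were higher (edgeR, adjusted p below 0.05). Among all 16066 genes, 382 were lower and 426 higher. The 7 oligodendrocyte lineage markers summed to 299 to 544 TPM in WT vehicle and 75.7 to 414 TPM in KO vehicle, and to 114 to 270 and 31.6 to 138 TPM after stimulation. Of these 7, *Pdgfra* was called lower in stimulated KO (-0.83, edgeR, adjusted p = 0.0396). The endothelial marker *Flt1* was called higher there (1.82, adjusted p = 0.0396) and rose with stimulation in KO (1.71, adjusted p = 0.00631), with the 4 endothelial markers summing to at most 1.68 TPM in a library. Within KO, litters 2 and 4 had the lowest oligodendrocyte lineage sums and the largest *Cebpb*, *Cebpd* and *Cebpg* responses, while litter 3 had the highest sum and the smallest responses. For *Cebpa* litter 3 was also smallest, but the largest responses were in litters 1 and 4 (1.95 and 1.98), with 1.38 in litter 2. This order of litters was not particular to the oligodendrocyte lineage. The astrocyte marker sums of KO litters 1 to 4 were 4185, 2980, 4999 and 3435 TPM in vehicle and 3197, 2709, 3873 and 2692 TPM after stimulation. Litters 2 and 4 were thus lowest and litter 3 highest there as well. In bulk cultures fewer cells of a type and less RNA per cell cannot be told apart, and the part of these markers in the C/EBP differences was not tested.

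Transcript abundance per length allowed the members to be compared with one another. In WT vehicle the order was *Cebpb* (46.3 ± 5.37 TPM), *Cebpd* (27.0 ± 1.39 TPM), *Cebpg* (14.3 ± 1.22 TPM) and *Cebpa* (5.85 ± 0.660 TPM), and no 2 neighbours in that order overlapped. In stimulated WT cultures the order of the means was the same (78.5, 55.6, 17.8 and 12.8 TPM), but the ranges of *Cebpb* and *Cebpd* and those of *Cebpg* and *Cebpa* overlapped. In KO vehicle the means were 34.4, 18.0, 14.7 and 9.14 TPM, each range overlapped with the next, and *Cebpd* was below *Cebpg* in litter 2 and above it in the other litters (log2 ratios from -0.15 to 0.83). In stimulated KO cultures they were 97.5, 78.8, 31.99 and 24.8 TPM, where *Cebpb* and *Cebpd* overlapped and were at equal levels in litter 2 (35.99% and 36.02% of the summed TPM).

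Summed over the 4 genes, the level was 93.4 ± 4.89 TPM in WT vehicle, 165 ± 19.8 TPM in stimulated WT, 76.2 ± 13.1 TPM in KO vehicle and 233 ± 38.9 TPM in stimulated KO (SD, n = 4). *Cebpb* made up 42.4% to 49.4% of the sum in the group means. The mean share of *Cebpd* was 29.0% in vehicle and 33.7% after stimulation in WT, and 23.5% and 33.5% in KO. That of *Cebpg* was 19.6% and 13.5% in KO, and in WT its share ran from 12.96% to 17.99% in vehicle and from 7.75% to 13.5% after stimulation. The *Cebpa* share was 6.27% and 7.84% in WT vehicle and stimulated WT and 12.3% and 10.6% in KO, where the vehicle mean holds a single high library (litter 2, 19.4%). These shares were described and not tested. On the log2(TPM + 1) scale the median response of all genes was -0.16 in WT and -0.14 in KO, against -0.0098 and -0.017 on the deposited log2 CPM, and the mean WT responses of *Cebpa*, *Cebpb*, *Cebpd* and *Cebpg* were 1.00, 0.74, 1.00 and 0.29, still above that median.

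**Figure D4:**
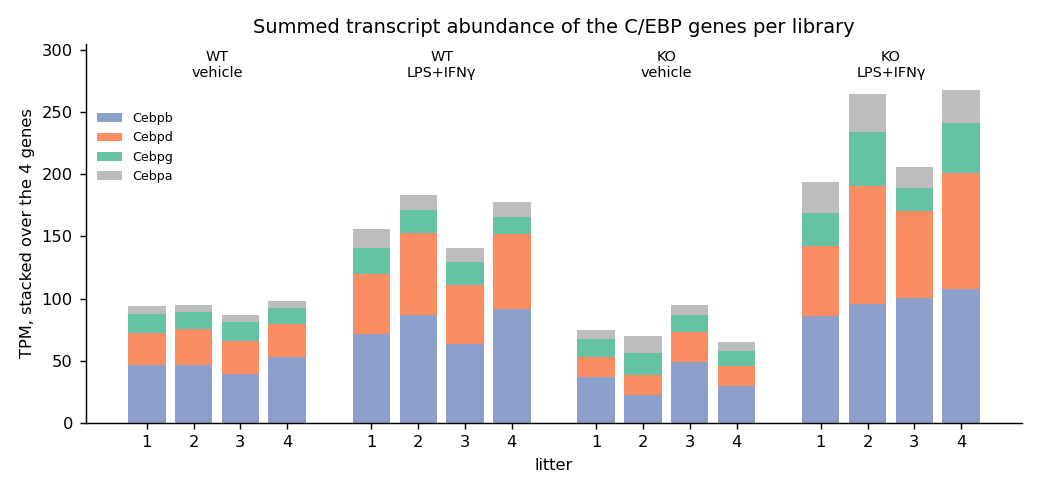
TPM of *Cebpb*, *Cebpd*, *Cebpg* and *Cebpa* stacked for each library (y axis) by litter and group (x axis). The stacks reach 86.6 to 98.3 TPM in WT vehicle, 65.3 to 95.04 in KO vehicle, 141 to 183 in stimulated WT and 194 to 268 in stimulated KO.

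Of 13 bZIP factors tested that can pair with C/EBPs, 9 rose and 1 fell in WT, and 11 rose and 0 fell in KO (median response 1.04 and 1.52). Of all genes, 23.7% rose and 20.2% fell in WT, and 25.3% rose and 24.2% fell in KO. The 13 include *Batf2* and *Batf3*, which were near 0 in vehicle and passed the filter through the stimulated libraries. The rise of these genes was thus fixed by the filter, and the counts and medians contain it. *Batf2*, an interferon-induced bZIP factor, went from 0 to 0.114 CPM in WT vehicle to 45.8 to 63.2 CPM after stimulation, and from 0 to 0.120 to 52.9 to 82.7 CPM in KO. *Atf3*, a stress-induced repressor, rose by 2.19 in WT and 2.51 in KO (edgeR, adjusted p = 0.00464 and 0.00272), and *Nfil3*, a bZIP factor of the clock and of lymphoid development, by 1.46 and 2.02 (0.00206 and 2.19e-04). *Batf3* was at most 0.294 CPM in WT vehicle and 0.840 to 2.17 CPM after stimulation, and 0.117 to 0.597 and 1.41 to 2.45 CPM in KO. *Atf5*, a stress response factor, was higher in stimulated KO than in stimulated WT by 1.40 (SE 0.299, edgeR, adjusted p = 0.0396) and was the only one of the 13 called there. Among the C/EBP-related genes outside the members, *Ddit3*, which encodes the C/EBP homologous protein of the unfolded protein response, rose in KO by 1.58 (edgeR, adjusted p = 0.00161) and had a WT response of 0.32 (0.408). It was higher in stimulated KO by 1.25 (0.0474), as was *Cebpz*, a CCAAT-binding factor outside the bZIP family, by 0.41 (0.0450), while *Cebpzos*, its neighbour on the opposite strand, was lower, with a log2 difference of -0.49 (0.0396).

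Genes that C/EBPγ and ATF4 are known to drive serve amino acid synthesis, transport and stress. Of 13 tested, 5 rose and 1 fell in WT (median 0.55), and 11 rose and 0 fell in KO (median 1.27). For comparison, 23.7% of all genes rose and 20.2% fell in WT, and 25.3% rose and 24.2% fell in KO. *Asns*, asparagine synthetase, rose by 1.02 in WT and 2.21 in KO (edgeR, adjusted p = 0.00907 and 5.84e-05), *Mthfd2*, a mitochondrial folate enzyme, by 2.02 and 2.38 (1.38e-04 and 2.74e-05), and *Slc7a11*, the cystine transporter, by 1.68 and 2.45 (1.67e-04 and 1.40e-05). *Phgdh*, the first enzyme of serine synthesis, fell in WT, with a log2 change of -0.55 (0.0114), and had a KO response of -0.039 (0.850), whose sign turned without KO litter 1 or 3. No gene of the list was called for the interaction by edgeR (median 0.82 against -0.017 over all genes). At an unadjusted p below 0.05, 9 of the 13 were higher, against 5.89% of all genes. DESeq2, limma-voom and limma on log2 CPM also called 0 for the interaction, and edgeR called 6 without KO litter 3, among 317 of 16298 genes.

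In stimulated cultures 8 of these 13 genes were higher in KO than in WT, against 2.65% of all genes, with a median difference of 1.25 against -0.014 over all genes, and in vehicle 0 were called by edgeR, DESeq2, limma-voom or limma on log2 CPM (median 0.36; 1 higher and 1 lower at an unadjusted p below 0.05). *Chac1*, a glutathione-degrading stress gene, was higher by 2.82 (SE 0.652, edgeR, adjusted p = 0.0396), *Asns* by 2.12 (SE 0.449, 0.0396), *Cth*, cystathionine γ-lyase, by 2.06 (SE 0.543, 0.0466), and *Slc7a5*, the large neutral amino acid transporter, by 1.90 (SE 0.397, 0.0396). *Sesn2*, *Shmt2*, *Aldh18a1* and *Phgdh* were higher by 1.36, 1.25, 1.24 and 0.53. *Slc7a11* was not called (0.063, 0.910). Among the stimulated KO libraries, all 13 genes were highest in litter 2 or 4 and 12 of the 13 were lowest in litter 3. *Asns* was at 117, 300.4, 50.2 and 291.0 CPM in KO litters 1 to 4, the third of which lay within the stimulated WT range of 29.5 to 65.97 CPM. The number called went to 0 without WT litter 2, 3 or 4 or KO litter 2 or 4 and in the 8 stimulated libraries alone, to 2 with limma-voom and to 11 with DESeq2 or without KO litter 3, while the median stayed between 1.04 and 1.48. Since 37.6% of the reads of *Slc3a2*, a transporter subunit in the list, lay on transcripts that could be paired with its symbol, that gene is undercounted. The list was chosen with results of these data known, so its direction is not independent of the *Cebpg* values.

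**Figure D5:**
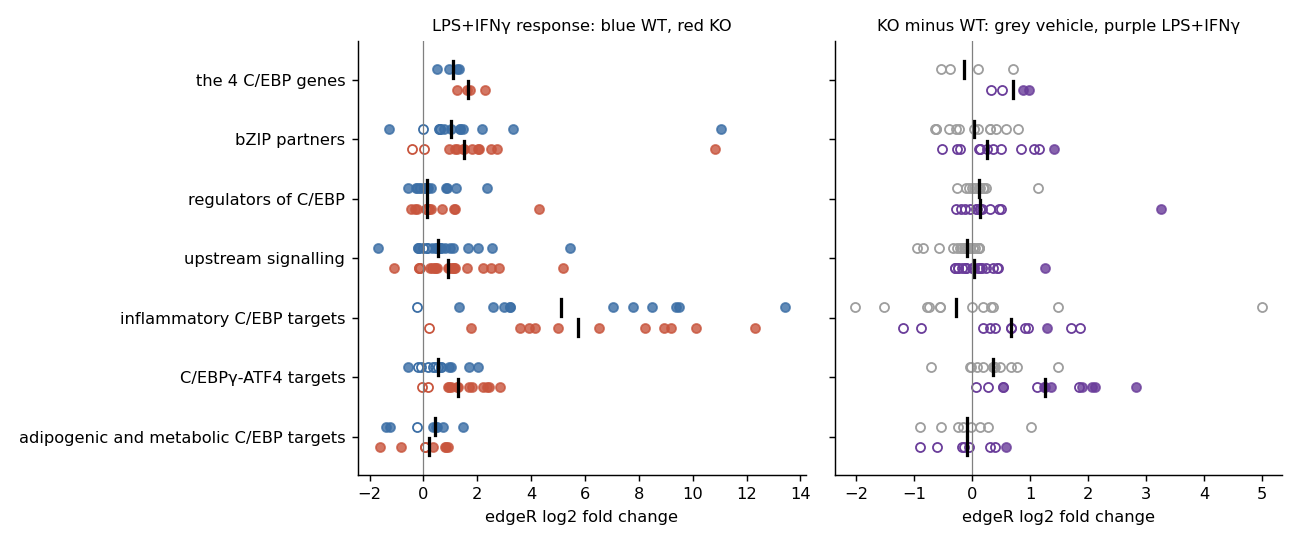
edgeR log2 fold changes (x axis) of the 4 C/EBP genes and of the genes listed for their partners, regulators, upstream signals and known targets (y axis), with the LPS + IFNγ response at left (WT blue, KO red) and KO minus WT at right (vehicle grey, LPS + IFNγ purple). Filled points have an adjusted p below 0.05 and black bars are medians. The C/EBPγ-ATF4 targets hold 8 filled purple points and a median of 1.25.

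Inflammatory genes known as C/EBPβ and C/EBPδ targets were mostly silent in vehicle. Of 22 listed, 12 were tested, the other 10 being below the authors' filter. Several of the 12 passed the filter only through the stimulated libraries, so that a rise was fixed by the filter, and levels are given in place of a count or folds. *Lcn2*, the iron-binding lipocalin of reactive astrocytes, was at 0 to 0.262 CPM in WT vehicle and 38.4 to 90.6 CPM after stimulation, and at 0 to 0.0821 and 64.8 to 159 CPM in KO. The chemokine *Ccl2* went from at most 0.220 CPM to 81.2 to 128 CPM in WT and from at most 0.813 CPM to 68.5 to 175 CPM in KO. *Ccl5* went from 0 CPM in all WT vehicle libraries to 32.4 to 52.0 CPM, and from at most 0.275 CPM to 37.5 to 85.2 CPM in KO. *Cxcl1*, a neutrophil chemokine, reached 4.57 to 12.3 CPM in WT and 7.56 to 33.5 CPM in KO. In KO against WT after stimulation 1 of the 12 was called, *Steap4*, a metalloreductase, at 21.9 to 44.8 CPM in WT and 45.6 to 135 CPM in KO (1.28 on the log2 scale, edgeR, adjusted p = 0.0396). At an unadjusted edgeR p below 0.05, 6 of the 12 were higher and 2 lower there, against 2168 and 2391 of 16066 genes. The 2 lower genes were *C3* (-0.89) and *Serpina3n* (-1.20), neither called (edgeR, adjusted p = 0.112 for both).

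Upstream of the C/EBPs, 12 of 20 signalling genes rose and 3 fell in WT, and 16 rose and 2 fell in KO (median 0.52 and 0.93). Among all genes the shares that rose and fell were 23.7% and 20.2% in WT, and 25.3% and 24.2% in KO. *Myd88*, the adaptor of Toll-like receptors, rose by 2.54 in WT and 2.80 in KO (edgeR, adjusted p = 4.46e-07 and 2.04e-07), *Il6ra*, the IL-6 receptor subunit, by 2.05 and 2.52 (3.44e-04 and 9.59e-05) and *Tlr4*, the LPS receptor, by 1.65 and 2.21 (2.93e-05 and 3.20e-06). *Cd14*, the LPS co-receptor, was the only one of the 20 called between genotypes, higher in stimulated KO by 1.25 (SE 0.301, edgeR, adjusted p = 0.0413). Its KO response was 1.13 (0.00229) and its WT response 0.12 (0.716), and the interaction was not called (1.01, adjusted p = 0.226).

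Of 13 genes that regulate C/EBP proteins, 7 rose and 3 fell in WT and 5 rose and 3 fell in KO, against 23.7% and 20.2% of all genes in WT and 25.3% and 24.2% in KO (median of the 13 genes 0.15 and 0.14). These counts and medians include *Trib3*, which was low in vehicle, so the filter may have favoured its rise. *Calr*, calreticulin, which can bind *Cebpa* and *Cebpb* RNA, rose by 1.22 and 1.17 (edgeR, adjusted p = 4.08e-07 and 5.15e-07), *Siah2*, a ubiquitin ligase, by 0.85 and 1.15 (5.00e-05 and 4.46e-06), and *Rps6ka1*, a kinase that phosphorylates C/EBPβ, by 0.89 and 0.70 (1.02e-05 and 4.57e-05). *Trib3*, a pseudokinase of the stress response whose relatives promote C/EBPα breakdown, was at 0.0648 to 0.419 CPM in WT vehicle and 0.706 to 3.79 CPM after stimulation, and at 0.217 to 0.904 and 2.12 to 27.5 CPM in KO; stimulated KO exceeded stimulated WT by 3.25 (SE 0.739, edgeR, adjusted p = 0.0396). Metabolic C/EBP targets were split: of 8 tested, 5 rose and 2 fell in WT and 4 rose and 2 fell in KO, against the same shares of all genes. *Scd1*, a fatty acid desaturase, rose by 1.48 and 0.83 (edgeR, adjusted p = 1.98e-05 and 8.44e-04) and *Plin2*, a lipid droplet coat protein, by 0.71 and 0.80 (2.41e-04 and 9.03e-05). The lipase *Lpl* fell, with log2 changes of -1.40 and -0.83 (2.66e-05 and 7.00e-04), as did the insulin-responsive glucose transporter *Slc2a4*, with -1.23 and -1.59 (7.39e-05 and 1.37e-05). *Insr*, the insulin receptor, was the only one called between genotypes, higher in stimulated KO by 0.57 (SE 0.139, edgeR, adjusted p = 0.0413). The calls between genotypes named here for single genes were, like those of the members, not stable when litters were left out: without WT litter 2, 3 or 4 edgeR called at most 2 of all genes.

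Across the 16 libraries, the levels of the members ran in 2 pairs. The Pearson r on log2 CPM was 0.969 between *Cebpb* and *Cebpd* and 0.911 between *Cebpa* and *Cebpg*, the 2 members on chromosome 7. It lay between 0.690 and 0.804 for the other pairs. With the mean of each group subtracted, so that only differences among libraries of the same group were left, r was 0.677 and 0.761 for these pairs and -0.36 to 0.37 for the others. Among the 12596 genes with a mean of at least 1 log2 CPM, those most like *Cebpa* were *Vav3* (r = 0.987), *Arhgap18* (0.986) and *Got1* (0.985), and those most like *Cebpb* were *Nfe2l2* (0.976), which encodes the oxidative stress factor NRF2, *Nfkbib* (0.970), an inhibitor of NF-κB, and *Ifit3b* (0.969). The closest to *Cebpd* were *Aig1* (0.983), *Steap4* (0.982) and *Pim1* (0.978), and the closest to *Cebpg* were *Lars* (0.989), a leucyl-tRNA synthetase, *Slc1a4* (0.983), a neutral amino acid transporter, and *Nars* (0.982), an asparaginyl-tRNA synthetase. After subtraction of group means, *Vav3* (0.974), *Lyn* (0.954) and *Ptk2* (0.952) were closest to *Cebpa*, *Nfkbib* (0.917), *Nfe2l2* (0.882) and *Bag3* (0.868) to *Cebpb*, *Plekha4* (0.945), *Enpp4* (0.892) and *Plscr2* (0.881) to *Cebpd*, and *Lars* (0.973), *Hspa9* (0.971) and *Eif4g2* (0.968) to *Cebpg*. These values describe 16 libraries that share treatments, litters and library preparation, and no test was made on them.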

How the data were processed

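RNA of 16 astrocyte cultures was sequenced by the authors as poly-A, paired-end libraries without strand information and quantified with Salmon 1.7.0 (GRCm39). The deposited files hold, per transcript, Salmon's expected counts and TPM, and, per gene, the authors' filtered and TMM-scaled CPM signal and its log2 CPM (lowest value -4.126). Transcripts were paired with symbols, which covered 96.72% to 97.27% of the reads of a library; expected counts were summed per gene and rounded. Depth was 27259420 to 43752903 assigned reads, so the members rest on at least 190 reads per library.

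Counts were tested with edgeR 4.0.16 (R 4.3.3; quasi-likelihood, TMM, transcript length offsets, filterByExpr with a minimum count of 10) and Benjamini-Hochberg adjustment over 16066 genes at 0.05. Responses and the interaction were fitted with litter nested in genotype as the block; KO against WT used the 4 group means. The pairing comes from the study's design, in which both wells of a litter share mice, and the deviations of paired libraries correlated with r of 0.260 to 0.618. Member levels came from the deposited log2 CPM and were compared by exact two-sided permutation of 4 against 4 litters; a sign-flip test of 4 responses cannot go below p = 0.125, which all 8 reached. The text names all members, the 4 genes of each list with the largest mean response, any list gene called between genotypes, and the 3 closest genes by r. A gene that this rule names among the signalling genes is not reported here. Members, lists and markers were chosen with earlier results of these data known. The scripts were run on simulated counts without litter effects, which checks the code and not how litters affect the calls. DESeq2 1.42.0, limma-voom and limma 3.58.1 on log2 CPM, other scalings and filters, and leaving out each litter were alternatives.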

Additional observations from a re-analysis of the deposited data

Results flagged for a closer look

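In KO vehicle cultures, *Cebpd* in litter 3 stood at 4.68 log2 CPM, away from the other KO litters at 4.05 to 4.13. Its gap over the range of the group was 0.869, above Dixon's critical value for 4 samples. Of 44 groups of 4 values tested this was the 1 that stood out. Chance flags about 1 group in 20, so 1 flag in 44 groups is no more than chance gives. The groups also share values, since levels, responses and shares come from the same libraries. The same litter had the highest fibroblast, oligodendrocyte lineage and astrocyte marker sums among KO vehicle cultures (33.0, 414 and 4999 TPM), whose part in the value was not tested.

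The response of *Cebpb* was larger in KO than in WT litters by 0.76 on the log2 scale (means of 1.73 and 0.97), and that of *Cebpd* by 1.05 (means of 2.30 and 1.25). Both differences had p = 0.0286 in the exact two-sided permutation test, higher in 4 of 4 KO litters than in each WT litter, and 0.0686 when adjusted over the 12 tests on the members.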

How the results depend on the processing

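All 4 members were called in the KO response under every alternative run. In the WT response *Cebpg* was lost with no replicate block (0.52, adjusted p = 0.0811) and without WT litter 1, 2 or 3 (range over left-out litters 0.46 to 0.59), which left 3 members. The members called for the interaction went from 0 to 2 with DESeq2 (*Cebpb* 0.76, adjusted p = 0.0278; *Cebpd* 1.06, 0.00263), in vehicle from 0 to 1 (*Cebpa* 0.70, 0.0398), and under LPS + IFNγ from 2 to 3 (*Cebpd* 0.52, 0.0408). Under LPS + IFNγ the count was 1 with limma-voom (*Cebpg* 0.79, 0.0582) and with its litter correlation (*Cebpg* 0.79, 0.0513), and 0 in the 8 stimulated libraries alone (*Cebpa* 0.98, 0.0746; *Cebpg* 0.87, 0.0887). The replicate block left 2 members called there, although the litter numbers do not pair WT with KO litters.

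Leaving out 1 litter at a time gave 0 to 3 members called for the interaction, in vehicle and under LPS + IFNγ, the 3 always without KO litter 3. The values ranged from 0.18 to 0.42 (*Cebpa*, not called), 0.56 to 0.92 (*Cebpb*), 0.89 to 1.26 (*Cebpd*) and 0.49 to 0.93 (*Cebpg*) for the interaction, from 0.43 to 0.81 (*Cebpa*), -0.59 to -0.23 (*Cebpb*), -0.70 to -0.47 (*Cebpd*) and -0.030 to 0.18 (*Cebpg*, negative without KO litter 2, as in the exact test at -0.020) in vehicle, and from 0.83 to 1.13 (*Cebpa*), 0.39 to 0.65 (*Cebpd*) and 0.67 to 1.06 (*Cebpg*) under LPS + IFNγ. Of the 12 exact tests 5 were below 0.05, and 0 to 8 with a litter left out, the 5 being at 0.0571 or 0.0857 whenever a WT litter was left out. The WT response of *Slc7a5* and the KO response of *Phgdh*, not called, turned sign with a litter left out (ranges -0.28 to 0.15 and -0.19 to 0.16). Over all genes the calls under LPS + IFNγ were 808, against 2438 (DESeq2), 387 (limma-voom), 1471 (limma on log2 CPM), 2206 (replicate block), 1246 (litter correlation), 0 (8 libraries) and 1 to 3333 with a litter left out; in vehicle 0, against 735 (DESeq2) and up to 1310; for the interaction 0, against 296 and up to 317. The causes were not tested. The members had at least 190 reads in each library, and 4 against 4 litters cannot give an exact p below 0.0286.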
